A study of Mus musculus with 6 samples.

Results

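The genes described here encode enzymes and subunits that methylate, demethylate or move histones: 55 of the 55433 genes in the deposited tables. They were chosen by symbol, as Kmt2 to Kmt5, Kdm1 to Kdm8, Chd1 to Chd9, Smarc and Arid genes with a family letter, and by at least 10 counts in 3 or more libraries. All 55 symbols that matched passed the count minimum, and all were among the 17711 genes tested. They fall into 8 Kmt, 16 Kdm, 9 Chd, 13 Smarc and 9 Arid genes. The rule leaves out Arid2, Kdm4d and the Y-linked Kdm5d, whose symbols do not match it.

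RNA was sequenced from whole spinal cords of C57BL/6J mouse embryos at E13.5. The 3 embryos labelled control had the genotype NFIA-ff, and the 3 labelled NFIAcKO had NFIA-ff with Nestin-cre, so both groups carried the floxed Nfia alleles and only 1 group carried cre. Nestin-cre acts in neural progenitors and their descendants, so blood and microglia of the dissected cord lie outside its main reach. Cre and the deletion cannot be told apart in this design. The labels name no litters, and p-values measure only the spread between these 6 samples. Libraries are named by label and replicate number below (control 1 to control 3, NFIAcKO 1 to NFIAcKO 3), and values per library keep that order.

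Chromatin regulators set which stretches of DNA a cell can read. Kmt enzymes add methyl groups to histone lysines and Kdm enzymes remove them, while Chd and Smarc ATPases use ATP to slide or evict nucleosomes and many Arid proteins help to place such machines on DNA. In the developing nervous system they are known for the passage from dividing progenitors to neurons, when subunits of the BAF (mammalian SWI/SNF) complex are exchanged, and several are disease genes of human brain development.

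Counts assigned to genes ran from 43393053 to 51465763 per library. Nfia, the targeted gene, had 2641, 3110 and 3683 counts in control libraries and 5144, 5016 and 5636 in those labelled NFIAcKO. It was higher, not lower, in each library labelled NFIAcKO, so the Nfia count goes against that label, and all directions below are between labels. Reads from exons outside a floxed segment would still be counted, and the count therefore does not test the recombination. Summed Hox genes of axial identity stood at 1617 to 2251 CPM (counts scaled to library size, with TMM factors), and the forebrain gene Emx1 had at most 3 counts in each library. Of the 55 genes, 5 shared exon bases with another annotated gene on the same strand and 20 on the opposite strand. Their counts are uncertain to that extent, since the strand setting of the counting is not given in the sources used here.

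Of the 55 genes, 24 rose in the libraries labelled NFIAcKO, 0 fell and 31 did not pass the test (edgeR quasi-likelihood test, Benjamini-Hochberg adjusted p under 0.05 over all genes). Among all tested genes 13.9% were called, 7.86% higher and 6.08% lower. The median log2 fold change was 0.26 over the 55 genes and -0.0083 over all tested genes, and 45 of the 55 lay above 0. DESeq2 called 27 higher and 1 lower, and limma-voom 25 and 0. At an unadjusted p under 0.05, 1 of the 55 was lower, Smarcd3. In 31 of the 55 genes each library labelled NFIAcKO lay above each control library, and in 1 below, against 17.3% and 16.1% of all tested genes. The differences were small: among the 24 genes the median was 0.43 on the log2 scale, and the largest was 1.62-fold. The count of 24 moved with the library left out, while the median of the 55 stayed between 0.20 and 0.33. The count was 10 without control 1, 19 without control 2, 31 without control 3, 13 without NFIAcKO 1, 15 without NFIAcKO 2 and 10 without NFIAcKO 3. In the same order 1.59, 3.95, 15.3, 1.76, 3.38 and 1.84% of all tested genes were called higher, so the calls of all genes moved with the dropped library too.

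**Figure D1:**
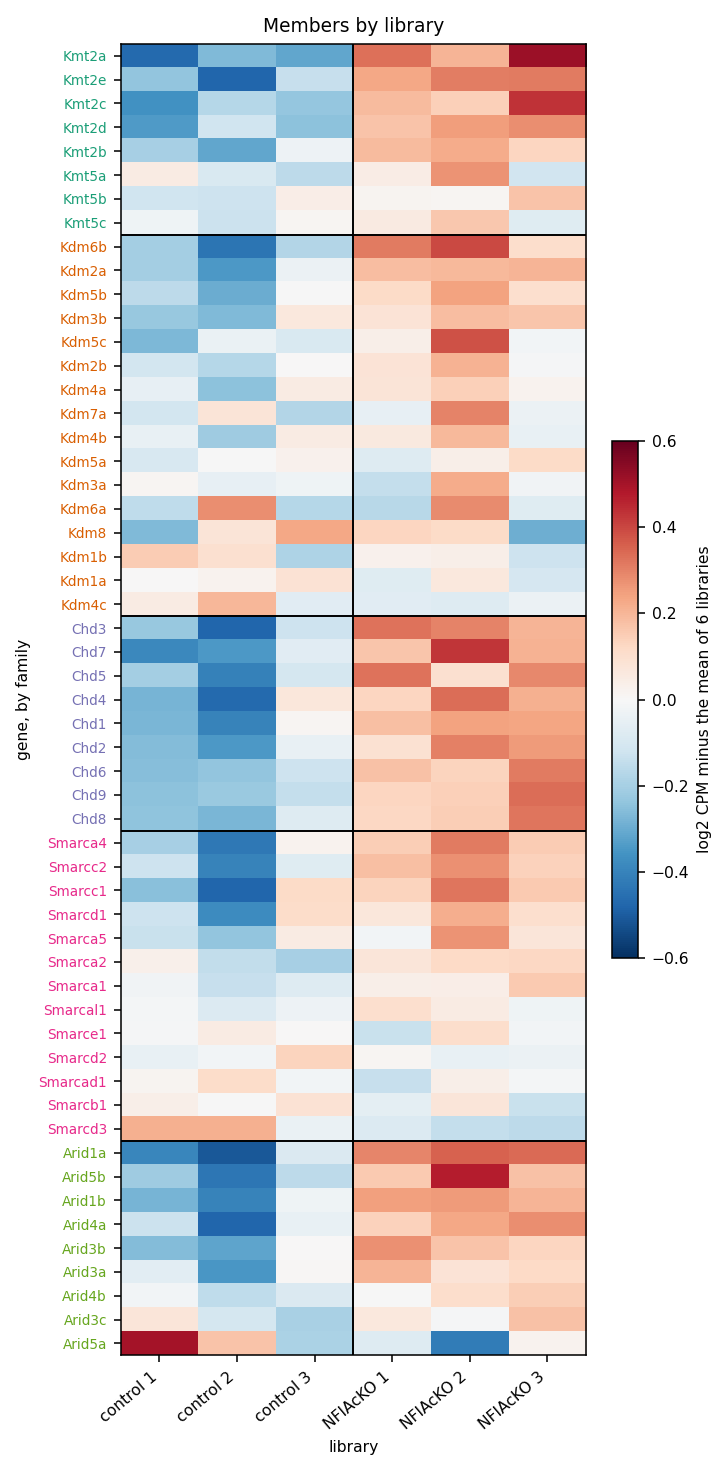
Level of each of the 55 genes (rows, by family) in each of the 6 libraries (columns), as log2 CPM minus the mean of the 6 libraries, with red above and blue below that mean. The Chd rows are blue in control 1 and control 2 and red in all 3 libraries labelled NFIAcKO, with family medians of -0.25, -0.35 and -0.079 in control 1 to 3 and 0.17, 0.24 and 0.26 in NFIAcKO 1 to 3.

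These transcripts are long, and length moved with the labels across the whole transcriptome. The median exonic length (all annotated exons merged) was 8383 bp over the 55 genes and 3976 bp over all tested genes, and 52 of the 55 were longer than that overall median. Taken relative to the average library, log2 CPM changed per doubling of exonic length by -0.065, -0.12 and -0.019 in the control libraries and by 0.067, 0.040 and 0.093 in those labelled NFIAcKO. In the octile of longest transcripts (8658 bp and over) 32.9% of all tested genes rose and their median was 0.21. The 26 members in that octile had a median of 0.40, and 17 of them rose. In the octile before it (6326 to 8654 bp) 14.4% of all genes rose, and 5 of 12 members did. Between 4997 and 6325 bp 8.33% of all genes rose, and 2 of 11 members did. The 6 members under 4997 bp did not pass the test.

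After removal of a trend in length and GC content from each library, 9 members rose and 1 fell. The median of the 55 was then 0.080 and that of all genes 0.0076, and 7.69% of all genes were called, 3.82% higher and 3.87% lower. The 9 were all among the 24: Kmt2a, Kmt2e, Kdm6b, Chd1, Chd3, Smarcc2, Arid1a, Arid4a and Arid5b. The gene that fell was Smarcd3. With the replicate number as a block in the same fit, 8 members rose and 3 fell. Values of single genes are given below with and without this joint trend. The parts of length and of GC content were not separated, and the source of the trend was not tested.

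**Figure D2:**
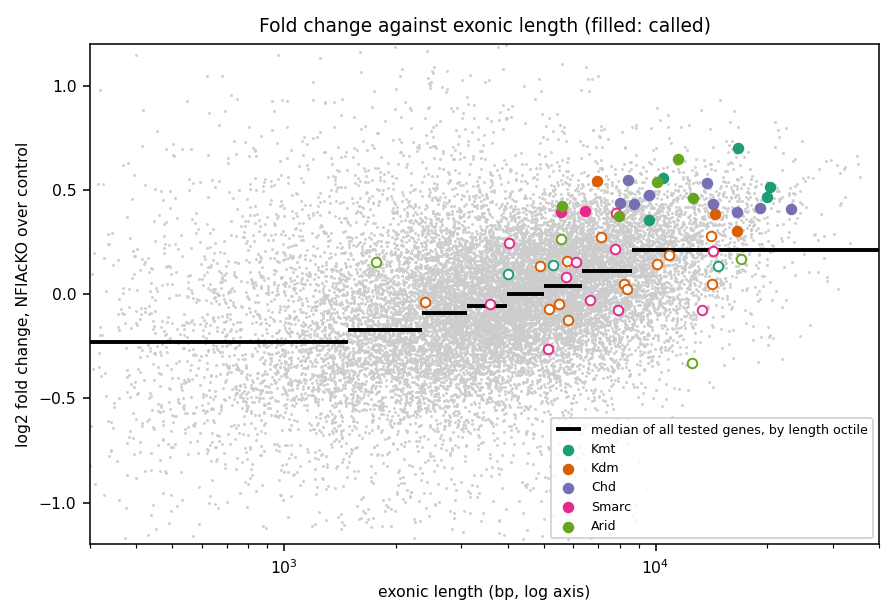
Log2 fold change (NFIAcKO over control labels) of each tested gene against its exonic length on a log axis, in grey, with the 55 members coloured by family, filled where called, and black bars for the median of all tested genes in each length octile (the axes end at 300 and 40000 bp and at 1.2 on either side). The black bars climb from -0.23 to 0.21, and the median of members in the longest octile is 0.40.

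Promoters were searched for letters that NFI proteins bind, since the series is about NFIA. RefSeq promoters of GRCm38.p6 were found for 41 of the 55 genes, 56 windows in all, each holding the 250 bases before a transcription start. The full palindrome, TTGGC and GCCAA with 5 free letters between them, was in 0 of the 56 windows, in 0.0376% of the windows of tested genes and in 0.0365% of all windows. The short form TTGGCA, on either strand, was in 5 of the 56 windows (8.93%), against 10.1% for tested genes and 12.3% for all windows. Among the members called higher it was in 3 of 20 windows (15%), those of Chd4, Arid5b and Kdm5b, which are printed to show where the letters lie. A match is a run of letters and not a measured site. Capitals mark TTGGCA or its reverse complement TGCCAA, 5′ to 3′ on the strand of the gene.
Chd4, chr6:125095731-125095980, plus strand: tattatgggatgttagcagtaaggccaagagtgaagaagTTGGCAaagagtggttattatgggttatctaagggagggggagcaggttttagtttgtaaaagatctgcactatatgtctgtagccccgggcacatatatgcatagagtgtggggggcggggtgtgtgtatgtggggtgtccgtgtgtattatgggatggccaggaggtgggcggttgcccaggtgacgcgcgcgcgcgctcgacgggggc
Arid5b, chr10:68278727-68278976, minus strand: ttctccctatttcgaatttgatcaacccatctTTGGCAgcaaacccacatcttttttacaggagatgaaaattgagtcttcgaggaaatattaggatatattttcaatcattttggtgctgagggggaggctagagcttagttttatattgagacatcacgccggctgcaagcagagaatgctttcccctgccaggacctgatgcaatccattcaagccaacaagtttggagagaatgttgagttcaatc
Kdm5b, chr1:134559928-134560177, plus strand: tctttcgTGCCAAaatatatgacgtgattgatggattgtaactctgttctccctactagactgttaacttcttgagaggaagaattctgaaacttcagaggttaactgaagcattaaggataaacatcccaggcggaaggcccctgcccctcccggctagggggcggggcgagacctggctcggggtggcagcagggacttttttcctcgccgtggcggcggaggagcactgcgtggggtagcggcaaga
In these 3 windows the match begins 211 bases before the RefSeq start for Chd4, 218 for Arid5b and 243 for Kdm5b, at the far end. Another Chd4 window, chr6:125095913-125096162, holds 0 matches. GENCODE exons take up 14 bases of the Arid5b window and 7 of the Kdm5b window. The printed Chd4 and Kdm5b windows hold 12 and 13 CpG dinucleotides and the Arid5b window 4, below the median of 21 over the 56 windows.

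Among the methyltransferases, the 5 Kmt2 genes rose and the 3 Kmt5 genes did not pass the test. That is 62.5% of the family, beside 7.86% of all tested genes. In the length octile of the family median, 12598 bp, 32.9% of all tested genes rose. The enzymes Kmt2a to Kmt2d methylate lysine 4 of histone H3, the mark of active promoters and enhancers. Kmt2a (MLL), which is known for holding Hox genes on, had the largest log2 fold change of the 55 genes. It lies on chromosome 9 from 44803355 to 44881296 on the minus strand in GRCm38, with 16670 bp of exons. Its level was 67.5, 77.7 and 75.2 CPM in the control libraries and 117, 107 and 133 CPM in those labelled NFIAcKO. The groups lay far apart, with NFIAcKO 3 the highest library. The edgeR result was log2 fold change 0.70, SE 0.092, adjusted p = 0.00249, and 0.37 without the trend (adjusted p = 0.0235). Kmt2e, a relative with a PHD finger that reads the mark, stood at 239.9, 203 and 257 CPM against 331, 349 and 350.1 CPM (log2 fold change 0.56, SE 0.092, adjusted p = 0.00458). Its 3 control libraries lay below the other 3, and without the trend its difference was 0.38 (adjusted p = 0.0167). Srpk2 on the other strand covers 9.31% of its exonic bases. Both calls held whichever library was dropped.

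Kmt2c and Kmt2d, the large enzymes that act at enhancers, also kept their calls whichever library was dropped. They did not keep them once the length and GC trend was taken out. Kmt2c stood at 63.4, 72.4 and 69.3 CPM against 92.8, 90.0 and 110.2 CPM (log2 fold change 0.51, SE 0.091, adjusted p = 0.00579). Kmt2d stood at 42.9, 50.0 and 45.7 CPM against 61.1, 64.5 and 65.7 CPM (log2 fold change 0.47, SE 0.083, adjusted p = 0.00591). In each the groups did not overlap, and with 20291 and 19931 bp of exons they are, after Chd9, the longest of the 55. Their differences without the trend were 0.15 and 0.016 (adjusted p = 0.216 and 0.946). Kmt2b, which like Kmt2a acts at CpG-rich promoters, stood at 108, 99.4 and 121 CPM against 141, 144 and 135 CPM (log2 fold change 0.36, SE 0.085, adjusted p = 0.0151). Dropping control 1 (0.0864), NFIAcKO 1 (0.0825), NFIAcKO 2 (0.0660) or NFIAcKO 3 (0.0615) ended the Kmt2b call (adjusted p in brackets), as did removal of the trend (0.080, adjusted p = 0.430).

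Kmt5 enzymes methylate histone H4. Kmt5a, the writer of the first methyl group, stood at 86.8 ± 6.41 and 95.7 ± 13.0 CPM in the control and NFIAcKO labels (SD, n = 3, adjusted p = 0.368). Kmt5b and Kmt5c, which add further methyl groups in silent chromatin, had log2 fold changes of 0.13 and 0.10 (adjusted p = 0.299 and 0.477). The groups overlapped in these 3 genes. Kmt5b has 14752 bp of exons, and without the trend its difference was -0.14 (adjusted p = 0.151).

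Of the 16 demethylase genes 3 rose (18.8%, beside 7.86% of all tested genes) and 13 did not pass. In the length octile of the family median, 7667.5 bp, 14.4% of all tested genes rose. Kdm6b (JMJD3) takes methyl groups off lysine 27 of histone H3 and so lifts Polycomb marks. It lies on chromosome 11 from 69398508 to 69413675 on the minus strand and stood at 186, 158 and 190.1 CPM against 266, 283 and 231 CPM, with no overlap. It had the largest difference of the family (log2 fold change 0.54, SE 0.10, adjusted p = 0.00572), and 0.34 without the trend (adjusted p = 0.0197), and its call held whichever library was dropped. Its X-linked relative Kdm6a (UTX), which acts on the same lysine, stood at 46.0, 62.2 and 45.4 CPM against 45.6, 62.3 and 48.7 CPM (log2 fold change 0.026, SE 0.14, adjusted p = 0.924). The Kdm6a groups overlapped, and the second replicate of each was the high one.

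Kdm2a, a CpG-binding demethylase of lysine 36, stood at 104, 94.1 and 117 CPM against 136, 137 and 137 CPM (log2 fold change 0.38, SE 0.085, adjusted p = 0.0122). The call was lost without control 1 (0.0707), NFIAcKO 1 (0.0660) or NFIAcKO 3 (0.0651), and without the trend (0.10, adjusted p = 0.334). Kdm5b, which removes methyl groups from lysine 4 and so opposes Kmt2 enzymes, stood at 251, 228 and 280.0 CPM against 303, 331 and 301 CPM (log2 fold change 0.30, SE 0.090, adjusted p = 0.0380). This call was among the least stable: it was lost without control 1 (0.140), control 2 (0.106), NFIAcKO 1 (0.112), NFIAcKO 2 (0.145) or NFIAcKO 3 (0.0960). Without the trend the Kdm5b difference was -0.0033 (adjusted p = 0.985), and its adjusted p was 0.0522 with the replicate block and 0.0537 with upper quartile scaling.

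Kdm3b, which acts on lysine 9, stood at 98.0, 95.5 and 120.3 CPM against 122, 130.5 and 129 CPM (log2 fold change 0.28, SE 0.092, adjusted p = 0.0550). The groups did not overlap, but control 3 came close to NFIAcKO 1. DESeq2 and the fit with the replicate block called it higher (adjusted p = 0.0275 and 0.0477). Without the trend its difference was -0.017 (adjusted p = 0.902), and Gm26538 on the other strand covers 24.6% of its exonic bases. Kdm5c, an X-linked demethylase of lysine 4 and a gene of intellectual disability, stood at 126, 148 and 143 CPM against 156, 198 and 150.4 CPM (log2 fold change 0.28, SE 0.10, adjusted p = 0.0921). Here too the second replicate was the highest library within each label. Kdm5c was not called without the trend (0.13, adjusted p = 0.473), with the replicate block (0.0614) or with any 1 library dropped (0.0575 to 0.393).

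In the other 10 demethylase genes the groups overlapped. Kdm1a (LSD1), the flavin enzyme of CoREST complexes and the most abundant Kdm gene by CPM in the control libraries, stood at 269.6, 273 and 286 CPM against 256, 281 and 251 CPM (log2 fold change -0.072, SE 0.080, adjusted p = 0.591). Its relative Kdm1b stood at 44.1 ± 5.36 and 42.6 ± 2.63 CPM (SD, n = 3, adjusted p = 0.782). Kdm4a, Kdm4b and Kdm4c, which act on lysines 9 and 36, differed by 0.16, 0.14 and -0.12 (adjusted p = 0.250, 0.334 and 0.387). Kdm2b, Kdm3a, Kdm5a and Kdm7a had adjusted p of 0.142, 0.771, 0.724 and 0.369. Kdm8 was the scarcest of the family, with 152 to 231 counts per library (adjusted p = 0.918).

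Xist, the RNA that silences an X chromosome in female cells, was at 335 CPM in control 2 and 201 CPM in NFIAcKO 2 and had at most 3 counts in the other 4 libraries. Kdm6a and Kdm5c are known to escape that silencing. Each label held 1 such library, and with Xist as a covariate 25 of the 55 genes rose, Kdm5c, which DESeq2 also called (adjusted p = 0.0426), among them (0.27, adjusted p = 0.0422). Smarca1 (SNF2L), the ISWI ATPase on the X chromosome, stood at 76.6, 70.6 and 73.7 CPM against 79.7, 80.0 and 86.6 CPM (log2 fold change 0.16, SE 0.077, adjusted p = 0.190), and its second replicates were not the high ones.

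**Figure D3:**
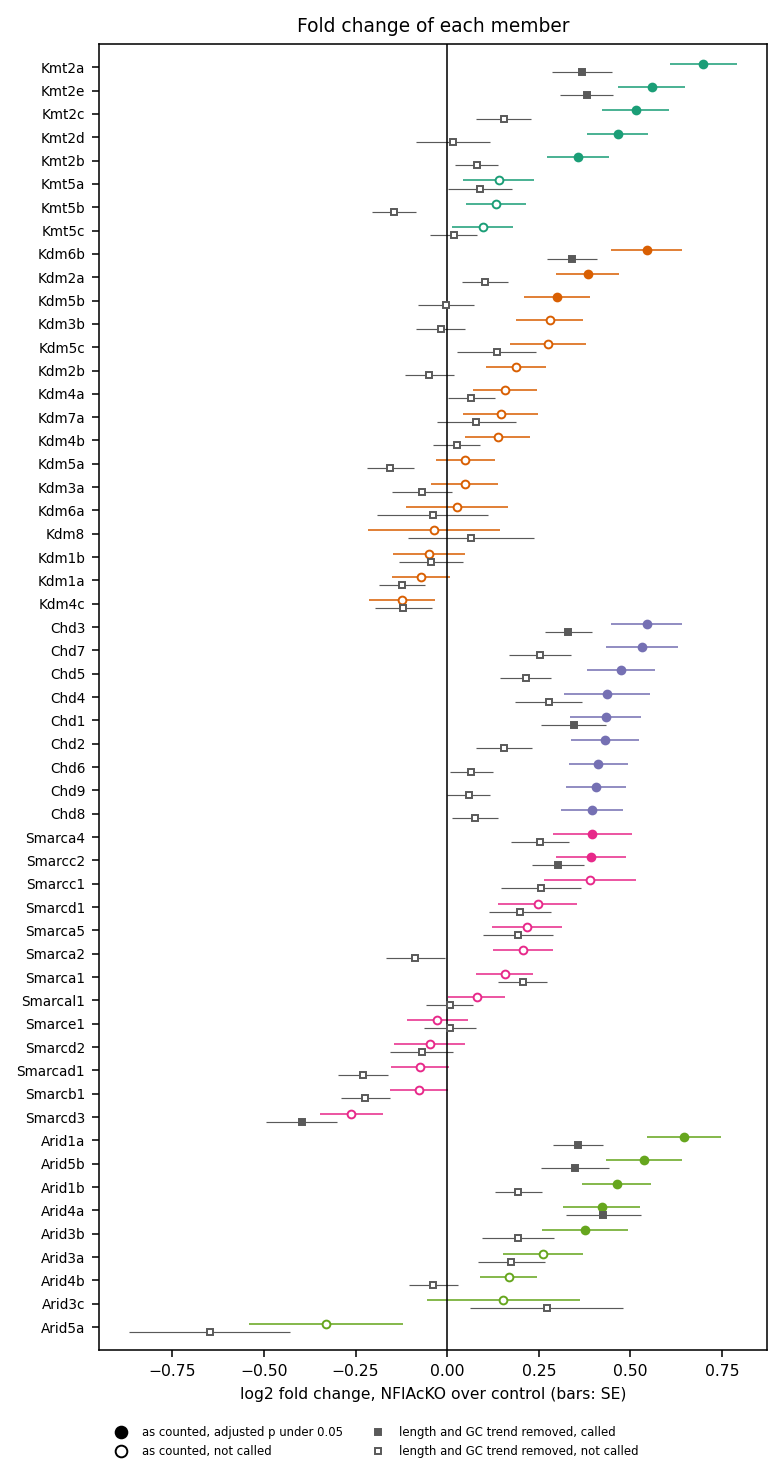
Log2 fold change (NFIAcKO over control labels) of each of the 55 genes with its SE, as counted (circles, coloured by family) and with the length and GC trend removed (grey squares), filled where the adjusted p was under 0.05. The 9 Chd circles are filled and lie between 0.40 and 0.55, while 9 squares are filled to the right of 0 and 1, that of Smarcd3, to the left.

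The 9 Chd genes rose without exception, and in each of them the labels did not overlap. Of all tested genes 7.86% rose, and in 17.3% each library labelled NFIAcKO lay above each control library. In the octile of longest transcripts 32.9% of all tested genes rose. Chd proteins are ATPases with paired chromodomains. Their log2 fold changes spanned 0.40 to 0.55, with a median of 0.43, and their median exonic length was 13786 bp. Without the trend 2 of the 9 rose, beside 3.82% of all tested genes, and the Chd median was 0.21. The count was 3 without control 1, 8 without control 2, 9 without control 3, 6 without NFIAcKO 1, 6 without NFIAcKO 2 and 2 without NFIAcKO 3, beside all-gene shares called higher of 1.59, 3.95, 15.3, 1.76, 3.38 and 1.84%. The Chd median stayed between 0.39 and 0.54 over these fits.

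Chd3, Chd4 and Chd5 are alternative ATPases of NuRD, a complex that joins nucleosome remodeling to histone deacetylation. Chd3, on chromosome 11 from 69343273 to 69369406 on the minus strand, stood at 541, 456 and 582 CPM against 795, 779 and 731 CPM (log2 fold change 0.55, SE 0.10, adjusted p = 0.00582). The Chd3 call held with any library dropped and without the trend (0.33, adjusted p = 0.0190). Chd4, whose promoter is printed above, stood at 469, 412 and 597 CPM against 623, 718 and 659 CPM (log2 fold change 0.44, SE 0.12, adjusted p = 0.0276). Control 3 came close to NFIAcKO 1, and without control 3 the log2 fold change was 0.59. The Chd4 call was lost without control 1 (0.118), control 2 (0.0778), NFIAcKO 1 (0.0709), NFIAcKO 2 (0.107) or NFIAcKO 3 (0.0906), and without the trend (0.28, adjusted p = 0.0788). Chd5, a form known from neurons, stood at 89.3, 77.8 and 95.6 CPM against 129, 110.0 and 126 CPM (log2 fold change 0.47, SE 0.093, adjusted p = 0.00754). It missed the threshold without NFIAcKO 1 (0.0565) or NFIAcKO 3 (0.0570), and without the trend (0.21, adjusted p = 0.0719).

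Chd6 to Chd9 form a branch of large proteins. Chd7, the CHARGE syndrome gene, which works at enhancers of neural and neural crest cells, stood at 76.6, 79.0 and 95.8 CPM against 113, 135 and 116 CPM (log2 fold change 0.53, SE 0.10, adjusted p = 0.00657). Its call held whichever library was dropped, but not without the trend (0.25, adjusted p = 0.0839). Chd6 stood at 99.9, 101 and 109 CPM against 134, 131 and 148 CPM (log2 fold change 0.41, SE 0.080, adjusted p = 0.00749), and dropping control 1 (0.0577) or NFIAcKO 3 (0.0576) ended its call. Chd9 stood at 108, 110.1 and 116 CPM against 140.4, 142 and 162 CPM (log2 fold change 0.41, SE 0.081, adjusted p = 0.00812), and dropping control 1 (0.0595) or NFIAcKO 3 (0.0604) ended its call. Without the trend Chd6 and Chd9, the longest Chd genes at 19093 and 23148 bp of exons, differed by 0.066 and 0.059 (adjusted p = 0.520 and 0.571). Chd8, a gene of autism, rose 1.31-fold (adjusted p = 0.0110), lost without control 1 (0.0708) or NFIAcKO 3 (0.0720), and without the trend (0.076, adjusted p = 0.481).

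Chd1 and Chd2 are known for their link to transcribed chromatin. Chd1 stood at 60.1 ± 9.01 and 81.2 ± 1.94 CPM (SD, n = 3), with log2 fold change 0.43, SE 0.10, adjusted p = 0.0124. Chd1 stayed called without the trend (0.35, adjusted p = 0.0357). It was lost without control 1 (0.0715), NFIAcKO 1 (0.0541), NFIAcKO 2 (0.0526) or NFIAcKO 3 (0.0651). Chd2 stood at 64.3 ± 7.04 and 86.7 ± 6.65 CPM (SD, n = 3), with log2 fold change 0.43, SE 0.092, adjusted p = 0.0108. The Chd2 call was lost without control 1 (0.0628), NFIAcKO 2 (0.0539) or NFIAcKO 3 (0.0615), and without the trend (0.16, adjusted p = 0.220). Overlaps with 1810026B05Rik and Gm44686 cover 19.3% of its exonic bases.

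Of the 13 Smarc genes 2 rose (15.4%, beside 7.86% of all tested genes) and 11 did not pass. In the length octile of the family median, 6475 bp, 14.4% of all tested genes rose. The Smarc family held both signs. Most Smarc proteins are parts of BAF complexes, in which Smarca4 (BRG1) or Smarca2 (BRM) is the ATPase and the Smarcc, Smarcd, Smarcb1 and Smarce1 proteins form the core around it. Per kb of exon Smarca4 was the most abundant of the 55 genes, at 99.9 ± 15.6 CPM per kb (SD, n = 3) in the control libraries, next to Smarcc2 at 98.6 ± 11.5. Smarca4 stood at 642, 548 and 749.6 CPM against 817, 916 and 820.4 CPM (log2 fold change 0.40, SE 0.11, adjusted p = 0.0266). Smarcc2 (BAF170) stood at 573, 474 and 594 CPM against 709.5, 757 and 689 CPM (log2 fold change 0.39, SE 0.10, adjusted p = 0.0172). In both the labels did not overlap, and control 2 was the lowest library.

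The Smarca4 call was lost without control 1 (0.10), control 2 (0.0641), NFIAcKO 1 (0.0816), NFIAcKO 2 (0.110) or NFIAcKO 3 (0.0776), and without the trend (0.25, adjusted p = 0.0632). Smarcc2 kept its call without the trend (0.30, adjusted p = 0.0273) and lost it without control 1 (0.0577), NFIAcKO 1 (0.0746), NFIAcKO 2 (0.0741) or NFIAcKO 3 (0.0608). Smarcc1 (BAF155), the paralogue of Smarcc2, stood at 210.2, 179.7 and 270.2 CPM against 274, 312 and 279 CPM (log2 fold change 0.39, SE 0.12, adjusted p = 0.0553). Its control libraries were spread more widely, and DESeq2 and limma-voom called it higher (adjusted p = 0.0115 and 0.0491). The replicate block did not (0.0519), nor did the fit without the trend (0.26, adjusted p = 0.171) or 5 of 6 fits with a library dropped (0.113 to 0.174).

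Smarcd3 (BAF60c), a subunit known from heart and neural development, was the 1 gene of the 55 in which each library labelled NFIAcKO lay below each control library. It stood at 66.1, 66.1 and 55.5 CPM against 53.9, 51.6 and 51.1 CPM (log2 fold change -0.26, SE 0.087, adjusted p = 0.0575), with control 3 close to the libraries labelled NFIAcKO. DESeq2, the fit without the trend and the fit without control 3 called it lower (adjusted p = 0.0385, 0.0316 and 0.00128), and the other 5 fits with a library dropped did not (0.132 to 0.200). It lies on chromosome 5 from 24590818 to 24624411 on the minus strand, and Chpf2 and Mir671 on the opposite strand cover 50.1% of its exonic bases, so part of the count may belong to them. Its paralogues Smarcd1 and Smarcd2 differed by 0.25 and -0.048 (adjusted p = 0.136 and 0.789).

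Smarca2, the other BAF ATPase, stood at 162, 143 and 138 CPM against 167, 173 and 173 CPM (log2 fold change 0.21, SE 0.082, adjusted p = 0.101). Without the trend its difference was -0.087 (adjusted p = 0.541). Smarca5 (SNF2H), an ISWI ATPase, differed by 0.22 (adjusted p = 0.141). Smarcb1, a core subunit, stood at 176 ± 5.27 and 167 ± 12.3 CPM (SD, n = 3, adjusted p = 0.567). Smarce1, another, stood at 301 ± 6.34 and 295 ± 24.4 CPM (SD, n = 3, adjusted p = 0.860). Smarcad1 and Smarcal1, remodelers known from DNA repair and replication, had adjusted p of 0.581 and 0.533. In the fit with both the trend removed and the replicate block, Smarcb1 and Smarcad1 were called lower (-0.23 and -0.23, adjusted p = 0.0468 and 0.0388).

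**Figure D4:**
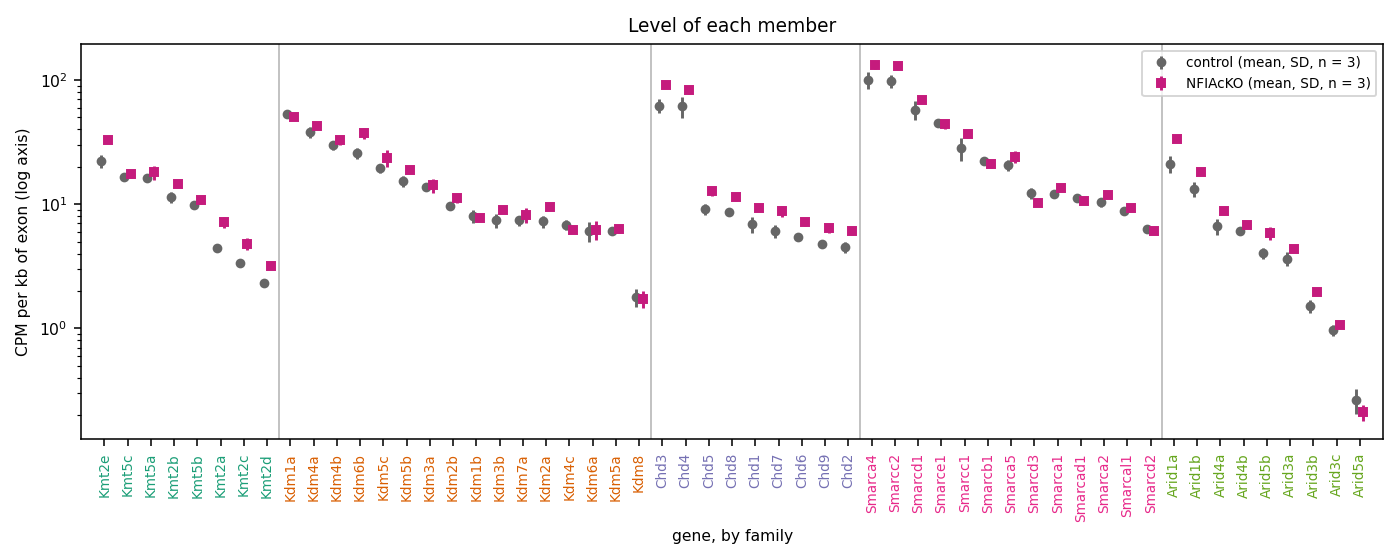
Level of each of the 55 genes in CPM per kb of exon on a log axis, ordered by level within each family, as mean and SD of the 3 control libraries (grey) and the 3 labelled NFIAcKO (magenta). In the control libraries Smarca4 stands highest at 99.9 CPM per kb and Arid5a lowest at 0.265, and the separation between labels is small beside this range.

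Of the 9 Arid genes 5 rose (55.6%, beside 7.86% of all tested genes) and 4 did not pass. In the length octile of the family median, 10060 bp, 32.9% of all tested genes rose. Arid1a (BAF250a), the DNA-binding subunit of canonical BAF, lies on chromosome 4 from 133679008 to 133756769 on the minus strand and shares no exon bases with another gene. It stood at 232, 213 and 286 CPM against 372, 388 and 384 CPM (log2 fold change 0.65, SE 0.10, adjusted p = 0.00438), with the libraries labelled NFIAcKO close together. Its call held whichever library was dropped and without the trend (0.36, adjusted p = 0.0167). Arid1b, the paralogue that takes its place in some BAF complexes and a gene of Coffin-Siris syndrome, stood at 161, 148 and 192 CPM against 232, 234 and 226 CPM (log2 fold change 0.46, SE 0.093, adjusted p = 0.00844). The Arid1b call was lost without control 1 (0.0566) or NFIAcKO 1 (0.0517), and without the trend (0.19, adjusted p = 0.0788).

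Arid5b, which works with the demethylase Phf2 and whose promoter is printed above, stood at 42.1, 36.0 and 43.8 CPM against 54.4, 67.5 and 55.0 CPM (log2 fold change 0.54, SE 0.10, adjusted p = 0.00720). The Arid5b call held with any library dropped and without the trend (0.35, adjusted p = 0.0400), but not when the replicate block was added to that removal (0.0668). Arid4a, a partner of the Sin3 deacetylase complex, stood at 39.2, 30.8 and 41.5 CPM against 47.1, 50.2 and 52.0 CPM (log2 fold change 0.42, SE 0.10, adjusted p = 0.0180). Its value without the length and GC trend was 0.43 (adjusted p = 0.0289), close to that as counted. Arid4a has 5615 bp of exons and a GC content of 44.0%, and the part of either was not tested. It was lost without control 1 (0.0577), control 2 (0.0580), NFIAcKO 1 (0.0588), NFIAcKO 2 (0.0658) or NFIAcKO 3 (0.0916).

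Arid3b, a DNA-binding protein outside BAF, stood at 11.5, 11.0 and 13.8 CPM against 16.6, 15.4 and 15.0 CPM (log2 fold change 0.38, SE 0.12, adjusted p = 0.0455). Its call was lost without control 1 (0.178), control 2 (0.167), NFIAcKO 1 (0.177), NFIAcKO 2 (0.102) or NFIAcKO 3 (0.103). It was also lost without the trend (0.19, adjusted p = 0.234), with upper quartile scaling (0.0680) and with the replicate block (0.0520). Arid3a and Arid4b differed by 0.26 and 0.17 without overlap (adjusted p = 0.123 and 0.164). Arid3c and Arid5a were the scarcest by level per kb, with 73 to 96 and 101 to 181 counts per library. Arid5a, known as an RNA-binding protein that stabilizes messages, had the lowest log2 fold change of the 55 (-0.33, adjusted p = 0.316), with overlapping labels. Without the trend Arid5a was at -0.65 (adjusted p = 0.0836). Arid3c had an adjusted p of 0.670.

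**Figure D5:**
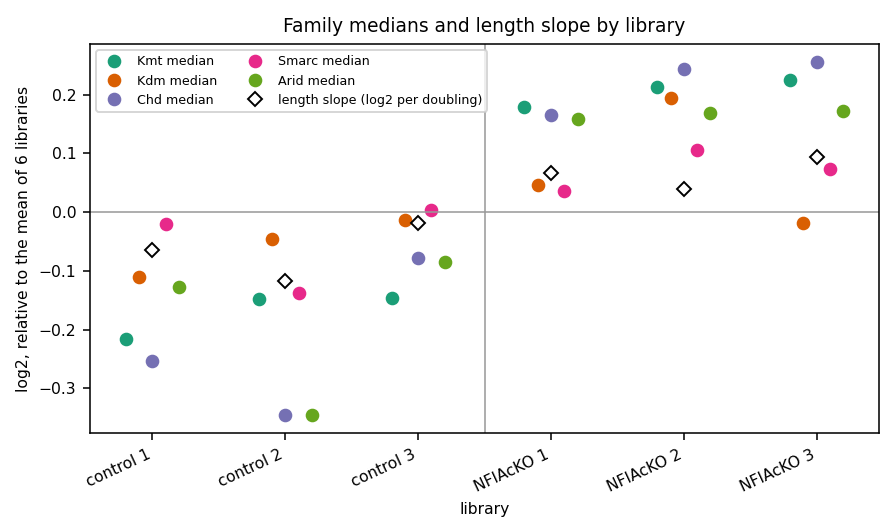
Median of each family in each of the 6 libraries (coloured points, as log2 CPM minus the mean of the 6 libraries) with the length slope, in log2 CPM for each doubling of exonic bases (open diamonds). The Chd median runs from -0.35 in control 2 to 0.26 in NFIAcKO 3, and the length slope is below 0 in the 3 control libraries and above 0 in the other 3.

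Together the 55 genes took 0.791, 0.739 and 0.872% of the gene counts in the control libraries and 0.942, 0.982 and 0.961% in those labelled NFIAcKO, so the labels lay apart. Control 2 had the lowest length slope and the lowest share. Among the libraries labelled NFIAcKO, however, NFIAcKO 2 had the highest share and the lowest slope. Medians of the Chd, Kmt, Arid and Smarc genes separated the labels, and those of the Kdm genes overlapped, with NFIAcKO 3 at -0.019 and control 3 at -0.013. These medians are as counted, with the length and GC trend in place. The Smarc separation was narrow, with control 3 at 0.0041 and NFIAcKO 1 at 0.036. With the trend removed the median Smarc log2 fold change was 0.0078, and that of all tested genes 0.0076.

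Ratios within a library compare paralogues that can take the same place in a complex. Levels per kb were used for 8 such pairs, and with 3 against 3 libraries the smallest p of an exact permutation test (2-sided) is 0.10. These levels are as counted, and division by length leaves the length and GC trend of each library in place. Arid1b over Arid1a stood at -0.66, -0.66 and -0.71 on the log2 scale in the control libraries and at -0.81, -0.86 and -0.90 in those labelled NFIAcKO. The labels did not overlap (exact permutation p = 0.10, 0.80 after adjustment over the 8 pairs). Smarcc2 over Smarcc1 averaged 1.82 ± 0.17 and 1.81 ± 0.048 (SD, n = 3, exact permutation p = 0.90). Chd5 over Chd4 averaged -2.74 ± 0.14 and -2.71 ± 0.23 (SD, n = 3, exact permutation p = 0.80), and Chd3 over Chd4 0.031 ± 0.13 and 0.13 ± 0.13 (exact permutation p = 0.50). Smarca2 over Smarca4 averaged -3.26 ± 0.28 and -3.46 ± 0.083 (SD, n = 3, exact permutation p = 0.40). Their exons total 14269 and 6475 bp, and the part of the trend in this ratio was not tested. The remaining pairs are BAF subunits exchanged between progenitors and neurons, and Actl6b over Actl6a, Dpf1 over Phf10 and Ss18l1 over Ss18 differed by 0.15, -0.12 and 0.080 (exact permutation p = 0.30, 0.20 and 0.60). The test takes no account of shared replicate numbers. Between same-numbered libraries Arid1b over Arid1a and Dpf1 over Phf10 were lower, and Actl6b over Actl6a higher, in the library labelled NFIAcKO for all 3 numbers. In the other pairs the sign differed between numbers, and these signs were not tested. Dpf1 over Phf10 was close for number 2, at 1.23 in control 2 and 1.22 in NFIAcKO 2.

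Other chromatin genes were taken from 8 lists of partners and related enzymes, of which 156 genes were tested. Of these 46 rose and 6 fell (29.5 and 3.85%, beside 7.86 and 6.08% of all tested genes), with a median of 0.15. Their median exonic length was 6414 bp, in an octile where 14.4% of all tested genes rose. Without the trend 13 rose and 2 fell, beside 3.82 and 3.87% of all tested genes. Of 19 other BAF and PBAF subunits 6 rose (31.6%) and 13 did not pass. Bicral and Bicra, alternative subunits of non-canonical BAF, rose (log2 fold changes 0.48 and 0.49, adjusted p = 0.00549 and 0.00574). Pbrm1, the polybromo subunit of PBAF, rose by 0.39 (adjusted p = 0.0140). Without the trend these 3 were at 0.37, 0.27 and 0.32 (adjusted p = 0.0167, 0.0277 and 0.0297). Dpf3 of the neuronal complex rose, with 28.3 ± 3.03 and 37.0 ± 0.159 CPM in the control and NFIAcKO labels (SD, n = 3, adjusted p = 0.0178). The progenitor subunits Actl6a, Phf10 and Ss18 had adjusted p of 0.117, 0.149 and 0.977, and the neuronal Actl6b, Dpf1 and Ss18l1 0.490, 0.695 and 0.639.

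Among histone methyltransferases named outside the Kmt series, 9 of 24 rose and 1 fell (37.5 and 4.17%, beside 7.86 and 6.08% of all tested genes). Setd1b, another writer of lysine 4, had a log2 fold change of 0.53, Ash1l 0.48 and Nsd1 0.47 (adjusted p = 0.00533, 0.00533 and 0.00591), and of these Ash1l kept its call without the trend (0.23, adjusted p = 0.0462). The gene that fell was the arginine methyltransferase Prmt1 (-0.32, adjusted p = 0.0435). Among 10 COMPASS core genes and MLL partners, which serve the Kmt2 enzymes, Ncoa6 (0.62, adjusted p = 0.00591) and Hcfc1 (0.45, adjusted p = 0.0141) rose. The short Dpy30, with 1146 bp of exons, fell (-0.41, adjusted p = 0.0174), and was at -0.040 without the trend (adjusted p = 0.760). Of 8 genes of demethylases and related enzymes outside the Kdm symbols 3 rose (37.5%), Phf2, Phf8 and Hif1an (adjusted p = 0.0305, 0.0339 and 0.0474). Without the trend the smallest adjusted p of the 8 was 0.0603.

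Of 29 ISWI, NuRD and INO80 partners 10 rose and 2 fell (34.5 and 6.90%, beside 7.86 and 6.08% of all tested genes). Bptf, the large subunit of the NURF complex, had a log2 fold change of 0.60, Ep400 0.51 and Baz2a 0.49 (adjusted p = 0.00438, 0.00591 and 0.00746). Bptf and Baz2a kept their calls without the trend. Rbbp4, the histone chaperone shared by NuRD and Polycomb complexes, fell, with 399 ± 53.5 and 293 ± 32.6 CPM in the control and NFIAcKO labels (SD, n = 3), with log2 fold change -0.45, SE 0.11, adjusted p = 0.0160. Its direction was opposite to that of Chd3 and Chd4, and without the trend it was at -0.57 (adjusted p = 0.0235). The other that fell was Chrac1, a small histone-fold subunit (-0.37, adjusted p = 0.0391). Of 29 acetyltransferases, deacetylases and their corepressors 8 rose and 2 fell (27.6 and 6.90%). Kat6a, Ep300 and Ncor1 had the smallest p (0.54, 0.47 and 0.44, adjusted p = 0.00458, 0.00523 and 0.00674), and Sirt7 and Kat8 fell (-0.40 and -0.41, adjusted p = 0.0236 and 0.0420).

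Of 9 DNA methylation genes 6 rose, among them the methyltransferases Dnmt1 and Dnmt3a and the oxidases Tet1, Tet2 and Tet3. Their median exonic length was 15067 bp, in the octile where 32.9% of all tested genes rose. Without the trend the smallest adjusted p, that of Dnmt1, was 0.0611. Of 28 Polycomb genes 2 rose, Pcgf3 and Jarid2 (adjusted p = 0.0386 and 0.0429). This 7.14% was close to the 7.86% of all tested genes. The Polycomb median was 0.025, and the median exonic length 5033 bp. Polycomb complexes place the mark that Kdm6b removes.

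In bulk tissue a change in the number of cells of a type and a change in RNA per cell cannot be told apart. Of 8 neuronal markers 1 rose, Elavl3 (adjusted p = 0.0185), and their summed level was 4887 to 5036 CPM in the control libraries and 4921 to 5425 CPM in those labelled NFIAcKO. Of 8 progenitor markers Nes rose and Hes5, Fabp7 and Slc1a3 fell, with sums of 2771 to 2939 and 2565 to 2815 CPM. Of 8 microglial markers 3 fell (P2ry12, C1qb and Fcrls), with sums of 104 to 113 and 82.0 to 91.1 CPM. Of 8 endothelial and pericyte markers 4 rose and 2 fell, with sums of 488 to 511 and 517 to 538 CPM. Blood markers summed to 1721 to 1966 and 1411 to 2072 CPM, and their smallest adjusted p was 0.139. Markers of meninges and mesenchyme summed to 1319 to 1703 and 1529 to 2109 CPM (smallest adjusted p = 0.110), cartilage to 158 to 228 and 222 to 256 CPM (0.0542), and muscle to 3.19 to 7.38 and 3.97 to 7.14 CPM (0.348). All marker values are as counted, with the length and GC trend in place. Of all tested genes 7.86% rose and 6.08% fell, and in the octiles of shortest transcripts (up to 1484 bp, and 1485 to 2354 bp) 11.4 and 12.3% fell. The part of length and GC content in the marker calls was not tested, nor was the part of these cell types in the differences of the chromatin genes.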

How the data were processed

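The deposited files, 1 per library, hold counts as whole numbers for each gene symbol, without normalization. STAR 2.6.1a, HTSeq, DESeq2 and mm10 are named, per the submitters' processing notes, without their roles. Summary lines that name no gene (16.9 to 19.4% of a file) were left out. Genes passing filterByExpr in edgeR 4.0.16 (R 4.3.3) were TMM-scaled and compared by the quasi-likelihood test, with Benjamini-Hochberg adjustment over all 17711 genes. An SE was taken as the size of a log2 fold change divided by the root of its F statistic. Lengths, GC content, coordinates and exon overlaps came from GENCODE M21 (GRCm38), which gave values for 98.8% of tested genes and all 55 members. The length and GC trend was estimated in each library by natural splines (5 degrees of freedom) from genes above a mean log2 CPM of 1, and served as an offset. Tests were checked on simulated counts.

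Same-numbered libraries deviated together (r = 0.353, 0.397 and 0.193 over 13122 genes), which was taken as pairing, although the labels state none. Within each label number 2 was the library with Xist and had the lowest length slope. The part of either in these correlations was not tested. The main test left this pairing out, and the replicate block was run only as an alternative. Pairs within a group differed by more than sampling noise. Alternatives were DESeq2 1.42.0, limma-voom (limma 3.58.1), other scalings, no filter, the replicate block, the number in file names, Xist, and each library left out. Members and lists were chosen with earlier results of these data known. Members given in each library were the 5 smallest p of each family, its most abundant gene and X-linked genes, with Chd4 added after its values were seen. Up to 3 genes and the exchanged BAF subunits were named per other list, and further genes were added after their values were seen. A few marker and list genes are not reported here.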

Additional observations from a re-analysis of the deposited data

How the results depend on the processing

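The direction of the 24 calls held in each alternative except for Kdm5b, at -0.0033 with the length and GC trend removed and -0.0061 when the replicate block was added. Of the 24, 9 kept their calls whichever library was dropped, and 5 (Kmt2a, Kmt2e, Kdm6b, Chd3 and Arid1a) in each alternative run. Dropping 1 library gave 10 to 31 members higher and 0 to 1 lower, 282 to 2703 of all genes higher and 139 to 2466 lower, and 12 to 69 other chromatin genes higher and 0 to 9 lower. With the trend removed 9 members were higher and 1 lower, 676 of all genes higher and 686 lower (1392 and 1076 as counted), and 13 other chromatin genes higher and 2 lower. With the replicate block as well these were 8 and 3 members, 707 and 792 of all genes, and 16 and 5 other chromatin genes. The replicate block alone gave 23 members higher and 0 lower, losing Kdm5b and Arid3b and gaining Kdm3b, and changed no other call among the members. Smarcd3 gave the 1 member lower in DESeq2, with upper quartile scaling and with the number in file names as a covariate. Upper quartile scaling split all genes into 1057 higher and 1434 lower. The cause of these differences was not tested. For Arid3c, Arid5a and Kdm8, with under 250 counts per library, depth limits the precision.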
